A study of Drosophila melanogaster with 9 samples.

Results

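The tetraspanin genes of the fly were read in the larval nose. They were taken as every gene in the gene-level count files whose name starts with Tsp and a digit, together with *lbm* (late bloomer), which gave 35 genes of the 17421 listed. Of these, 18 lie side by side in the *Tsp42E* cluster and 17 lie elsewhere in the genome, and the 2 sets were described apart. The study compared dorsal organs of *Orco* mutant larvae of the third instar (5 libraries) with those of wild-type larvae (4 libraries) by Smart-seq2, a full-length cDNA method for small amounts of RNA. *Orco* encodes the co-receptor that most insect odorant receptors need to reach the sensory cilium and to pass current. Both genotypes were homozygous for *Orco-Gal4* and *UAS-mCD8-GFP* in a *w1118* background, so that the olfactory receptor neurons carried a membrane-bound GFP, and the mutant larvae were in addition homozygous for the null allele *orco1*. Each library came from 20 organs that were freed with collagenase and picked by hand for GFP. As *Orco-Gal4* labels only the neurons while whole organs were collected, fewer cells of a type and less RNA per cell cannot be told apart in these samples.

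Tetraspanins are small proteins that cross the membrane several times and carry a large extracellular loop. They bind one another and other membrane proteins such as integrins and proteases, and hold them in patches of the membrane or steer them through endosomes. In flies they are known from the growing motor axon, from the lysosomes of photoreceptors, from the septate junctions of the gut and from Notch signaling, and where a member below is given no role, none is stated here. In Release 6 of the fly genome the cluster spans 73.4 kb of chromosome 2R, from position 6992676 to position 7066113, with 15 genes on the plus strand and 3 on the minus strand. The span also holds 6 other protein-coding genes.

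The libraries held 4090474 to 9157645 estimated counts in *Orco* mutants and 4432839 to 7005182 in wild-type, of which 33.3% to 53.8% fell on genes named as rRNA. *Orco* itself, the check of the labels, averaged 0.363 ± 0.553 CPM (counts scaled to library size) in *Orco* mutants and 289 ± 74.2 CPM in wild-type (SD, n = 5 and n = 4; edgeR log2 fold change -9.25, adjusted p = 3.75e-04). The third mutant library stood apart by its low complexity, with 6790 genes detected, and the fifth by its mitochondrial share of 14.6%. The sums of the 6 dorsal organ markers, *Orco* among them, ran from 316 to 912 CPM in *Orco* mutants and from 461.5 to 697 CPM in wild-type. Without *Orco* the other 5 summed to 316 to 912 CPM in the mutants (554 ± 232 CPM) and to 233 to 351 CPM in wild-type (299 ± 49.2 CPM), and 4 of the 5 mutant libraries lay above all wild-type libraries. The 4 of these that were tested had positive log2 fold changes, among them *Ir21a*, a receptor of the cool-sensing neurons, with 304 ± 96.4 CPM in *Orco* mutants and 136 ± 37.7 CPM in wild-type (edgeR adjusted p = 0.654). Markers of muscle summed to 88.3 to 1569 CPM in *Orco* mutants and 252 to 2055 CPM in wild-type, and those of fat body to 1.15 to 194 CPM in *Orco* mutants and 10.7 to 203 CPM in wild-type. The sums for neuron, hemocyte, midgut and trachea markers overlapped between the genotypes as well. Those of glia ran from 1235 to 2043 CPM in *Orco* mutants and from 1019 to 1345 CPM in wild-type. They overlapped too, but 4 of the 5 mutant libraries lay above all wild-type libraries. Of the 6 glia markers tested, 2 had a positive and 4 a negative log2 fold change (median -0.10). All listed markers had a count in some library except the midgut genes *betaTry* and *Jon65Aiii*, which were at 0 in all 9. The part of these markers and tissues in the results was not tested.

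The dorsal organ expressed a few tetraspanins strongly and most of them weakly. *Tsp42Ee* led by far, with 588 ± 121 CPM per kb of exon in *Orco* mutants and 618 ± 46.6 in wild-type, where it was 156th of 8125 genes ordered by this level. Behind it in the *Orco* mutants came *Tsp42El* (128 ± 33.0 CPM per kb), *Tsp47F* (110 ± 54.0), *Tsp74F* (108 ± 23.7) and *Tsp42Ef* (72.3 ± 10.98). In wild-type the same 4 followed it as *Tsp74F* (230 ± 139 CPM per kb), *Tsp42Ef* (213 ± 42.9), *Tsp42El* (205 ± 19.8) and *Tsp47F* (182 ± 61.1), none of them apart from the next beyond its spread. All other members were below these in both genotypes, the next being *lbm* at 36.2 ± 20.2 CPM per kb in the mutants and *Tsp42En* at 57.0 ± 22.7 in wild-type.

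**Figure D1:**
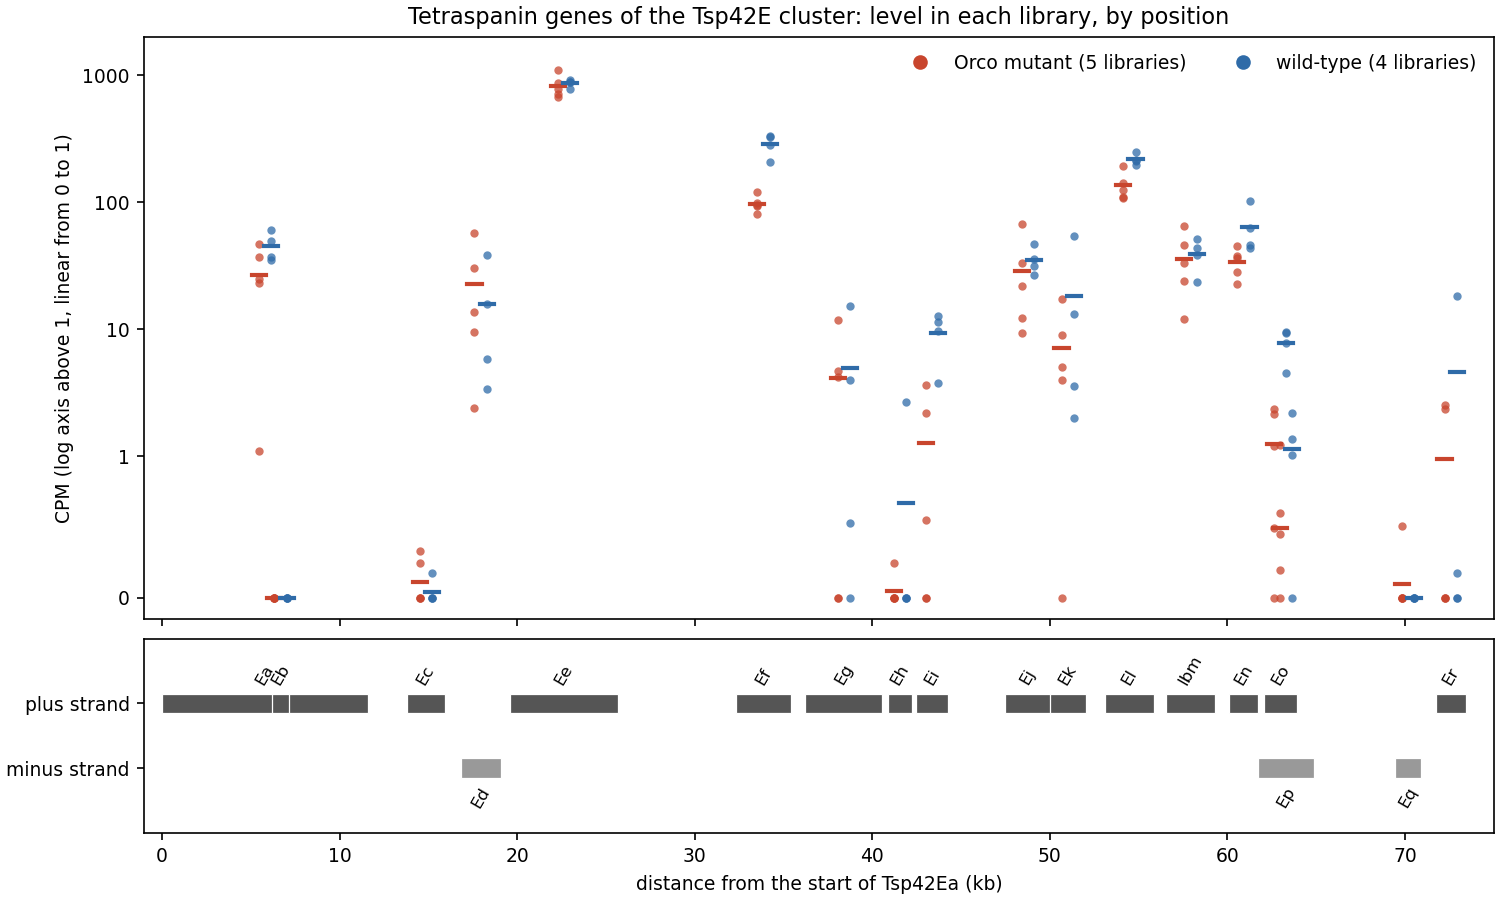
Levels of the 18 genes of the *Tsp42E* cluster in CPM (upper panel, log axis above 1 and linear below) against the distance from the start of *Tsp42Ea* in kb, with the gene spans by strand in the lower panel. Points are libraries (*Orco* mutant red, wild-type blue, set slightly apart for view) and bars are means; *Tsp42Ee* is the highest gene in both genotypes, and for *Tsp42Ef* all 5 mutant points lie below all 4 wild-type points.

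The clearest difference among the tetraspanins was at *Tsp42Ef*, which was lower in all 5 mutant libraries. It is a cluster gene on the plus strand (2R, 7025010 to 7028082) with 1 annotated transcript and no overlapping gene. *Tsp42Ef* had 80.8, 97.8, 94.5, 121 and 92.7 CPM in the *Orco* mutant libraries, against 206, 324, 283 and 333 CPM in the wild-type libraries. The highest mutant library was well below the lowest wild-type library, and both genotypes were tight around their means of 97.4 ± 14.8 CPM in *Orco* mutants and 287 ± 57.8 CPM in wild-type (SD, n = 5 and n = 4). The log2 fold change was -1.56 (SE 0.27, 95% interval -2.15 to -0.97). Its unadjusted p was 7.58e-05, the seventh smallest of the 8160 genes tested, and its edgeR adjusted p over all of them was 0.0883, above the threshold of 0.05. DESeq2 gave nearly the same log2 fold change, -1.55, with an adjusted p of 1.82e-05, so that the call depends on the test.

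By edgeR, 0 of the 24 tetraspanin genes with enough counts for the test passed at an adjusted p under 0.05, where 3 of all 8160 genes did (0.0368%). At an unadjusted p under 0.05, 3 of the 24 were lower in the *Orco* mutants, namely *Tsp42Ef*, *Tsp74F* and *Tsp42El*, and 0 were higher, against 2.76% of all genes lower and 4.96% in either direction. DESeq2 called 1 of the 24 lower and 0 higher, where it called 0.478% of all genes lower and 0.748% in either direction. In 4 of the 24, every mutant library was below every wild-type library, where this held for 2.7% of all genes. These were *Tsp42Ef*, *Tsp42El*, *Tsp42Ei* and *Tsp42Eo*, all of the cluster. *Tsp42Ei* and *Tsp42Eo* had only 58 and 53.2 counts over the mutant libraries. They met the count filter through the wild-type libraries, where they are higher, so their place among the 4 is not independent of that filter. The opposite, with every mutant library above every wild-type library, held for 0 of the 24 and for 1.19% of all genes.

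Within the cluster, 11 of the 12 tested genes had a negative log2 fold change, with a median of -0.72. Outside it, 6 were negative and 6 positive, with a median of 0.07. Over all genes tested the median was near 0, at -0.001, and 50.07% were negative. The members passed a filter on low counts that libraries of either genotype, alone or together, can meet. Neighbours in a cluster share a locus as well, so these medians describe the lists and were given no test.

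**Figure D2:**
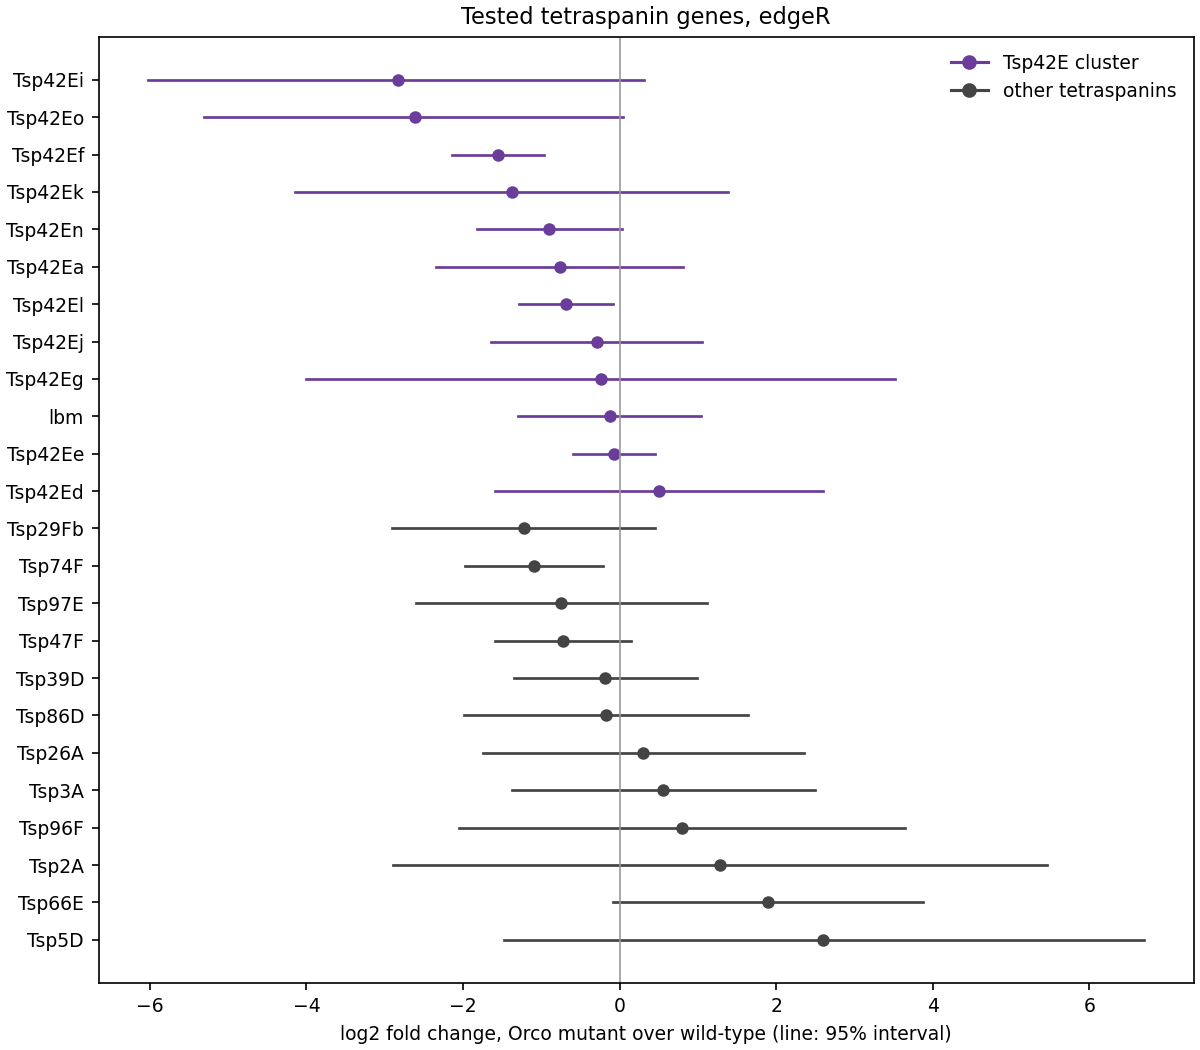
The log2 fold change of *Orco* mutant over wild-type for the 24 tested tetraspanin genes, with the 95% interval of the edgeR fit as a line, cluster genes above (purple) and the others below (grey). The intervals of *Tsp42Ef*, *Tsp42El* and *Tsp74F* lie wholly below 0, the interval of *Tsp42Ee* is the narrowest, and many intervals of weakly expressed genes span several log2 units.

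*Tsp42Ee*, the left neighbour of *Tsp42Ef* on the same strand and 6.6 kb away, showed no such difference. *Tsp42Ee* had 674, 704, 1094, 770 and 859 CPM in the *Orco* mutant libraries, against 770, 876, 879 and 922 CPM in the wild-type libraries. The third mutant library was the highest of the 9, the other 4 mutant libraries lay below the middle of the wild-type values, and the genotypes overlapped. The log2 fold change was -0.07 (SE 0.24, edgeR adjusted p = 0.997) with an interval of -0.59 to 0.45. It was the only tetraspanin whose interval stayed within a 2-fold change in either direction, which 5.40% of all genes tested did. For the other 23 tested members a change of that size was within the interval.

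Shares within a library do not depend on how libraries are scaled to one another, and they set the cluster genes apart in the same way. For every 100 counts of *Tsp42Ee* there were 12.0, 13.9, 8.64, 15.7 and 10.8 counts of *Tsp42Ef* in the *Orco* mutant libraries, against 26.8, 37.0, 32.2 and 36.1 in the wild-type libraries. The highest mutant ratio was below the lowest wild-type ratio. *Tsp42El* gave 16.4 ± 0.830 counts per 100 of *Tsp42Ee* in *Orco* mutants and 25.3 ± 2.51 in wild-type, again without overlap, and its ratio was nearly the same in all 5 mutant libraries (15.4 to 17.7). *Tsp42Ee* in turn made up 46.8 ± 3.96% of all tetraspanin counts in *Orco* mutants and 36.1 ± 1.66% in wild-type. These ratios were chosen after the values were seen and were not tested.

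**Figure D3:**
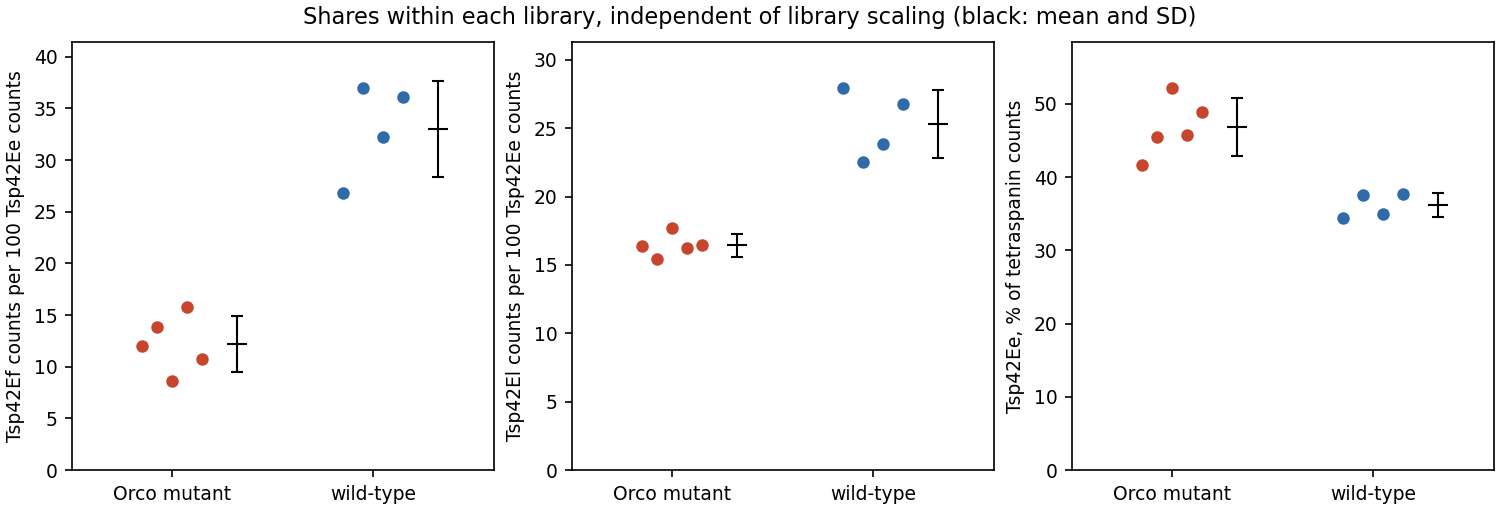
*Tsp42Ef* counts and *Tsp42El* counts per 100 *Tsp42Ee* counts, and the percentage of tetraspanin counts that fell on *Tsp42Ee*, for each library (points; *Orco* mutant left, wild-type right) with mean and SD in black. In each panel the 5 mutant libraries and the 4 wild-type libraries do not overlap, with mutant libraries lower in the first and second panels and higher in the third.

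*Tsp42El*, *Tsp42En* and *Tsp42Ea* had lower means in the *Orco* mutants, with smaller log2 fold changes than *Tsp42Ef*. The errors of *Tsp42En* and *Tsp42Ea* were also wider. *Tsp42El* had 110, 109, 194, 125 and 141 CPM in the *Orco* mutant libraries, against 215, 198, 210 and 247 CPM in the wild-type libraries. The genotypes did not overlap, but the third mutant library came close to the lowest wild-type library, and the log2 fold change of -0.68 (SE 0.28) had an edgeR adjusted p of 0.980. *Tsp42En*, which averaged 34.1 ± 8.83 CPM in *Orco* mutants and 63.4 ± 27.1 CPM in wild-type, overlapped because its highest mutant library (45.6 CPM) exceeded its lowest wild-type library (43.4 CPM). Its log2 fold change was -0.90 (SE 0.43, edgeR adjusted p = 0.997). *Tsp42Ea*, at the left end of the cluster, overlapped more widely, with 1.10 to 47.1 CPM in *Orco* mutants and 34.8 to 60.2 CPM in wild-type (log2 fold change -0.76, SE 0.73), and its lowest value was that of the third mutant library. Its exons share 97 bases with *CG30159* on the same strand.

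The other pair of cluster genes without overlap, *Tsp42Ei* and *Tsp42Eo*, rested on few counts. *Tsp42Ei* had 0, 2.21, 0.551, 3.66 and 0 CPM in the *Orco* mutant libraries, against 3.79, 12.8, 11.4 and 9.74 CPM in the wild-type libraries. The highest mutant library lay only just under the lowest wild-type library, and the 58 mutant counts and 218 wild-type counts gave a log2 fold change of -2.83 with a wide SE of 1.46 (edgeR adjusted p = 0.997). The exons of *Tsp42Ei* share 182 bases with *CG33914* on the other strand, which averaged 4.62 ± 5.31 CPM in *Orco* mutants and 24.2 ± 12.4 CPM in wild-type (log2 fold change -2.39, edgeR adjusted p = 0.997; named after its values were seen). Smart-seq2 libraries do not keep the strand, so reads in the shared bases cannot be told apart.

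*Tsp42Eo* had 2.35, 1.20, 0, 2.18 and 0.496 CPM in the *Orco* mutant libraries, against 4.51, 9.57, 9.34 and 7.84 CPM in the wild-type libraries. Every mutant library was lower, and the log2 fold change of -2.61 (SE 1.24, interval -5.31 to 0.05) had an edgeR adjusted p of 0.997. All 889 exon bases of *Tsp42Eo* lie within exons of *Tsp42Ep* on the other strand, so that the split of reads between these genes was an estimate of the authors' quantification. *Tsp42Ep* was given 15.8 counts over the mutant libraries and 25.3 counts over the wild-type libraries and was too low to be tested.

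**Figure D4:**
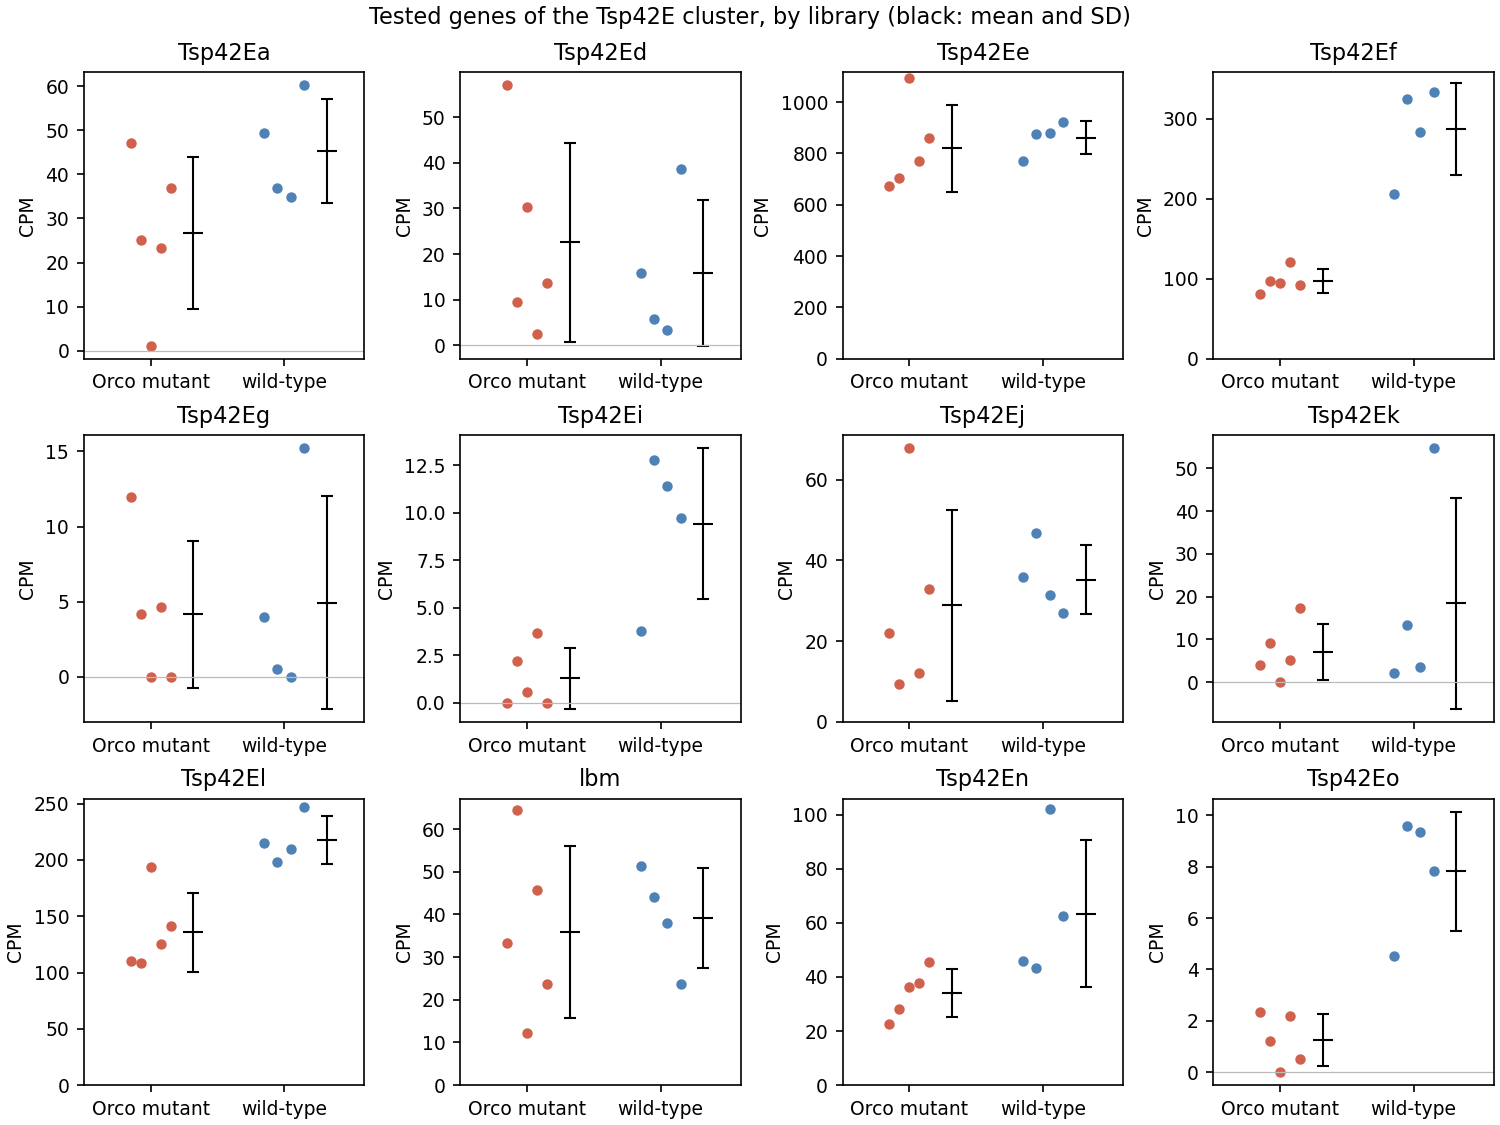
CPM of the 12 tested genes of the *Tsp42E* cluster in each library (*Orco* mutant red, wild-type blue), with mean and SD in black, each panel with its own axis. *Tsp42Ef*, *Tsp42Ei*, *Tsp42El* and *Tsp42Eo* are the 4 panels in which the genotypes do not overlap, and *Tsp42Ee* is the panel with the highest values.

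Of the cluster genes with a known role, *lbm* and *Tsp42Ej* overlapped between the genotypes. *lbm* encodes a tetraspanin of motor axons whose loss delays the forming of the neuromuscular synapse. It had 33.3, 64.5, 12.1, 45.7 and 23.8 CPM in the *Orco* mutant libraries, against 51.3, 44.0, 38.1 and 23.7 CPM in the wild-type libraries. The mutant libraries spread on both sides of the wild-type ones (log2 fold change -0.13, interval -1.30 to 1.04, edgeR adjusted p = 0.997). *Tsp42Ej*, known as sunglasses, takes part in the lysosomal breakdown of rhodopsin in photoreceptors, and it had 9.39 to 67.8 CPM in *Orco* mutants and 27.0 to 46.8 CPM in wild-type (log2 fold change -0.29, SE 0.62). Its exons share 107 bases with *Tsp42Ek* on the same strand. *Tsp42Ek*, *Tsp42Eg* and *Tsp42Ed* varied by more than 90% of their mean among the mutant libraries and by more than 100% among the wild-type libraries, as coefficient of variation. Their log2 fold changes were -1.37, -0.24 and 0.50, each with an SE over 0.9.

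Summed over its 18 genes, the cluster reached 1217 ± 193 CPM in *Orco* mutants and 1612 ± 161 CPM in wild-type, with overlapping ranges (1066 to 1531 CPM in the mutants and 1409 to 1803 CPM in wild-type). *Tsp42Ee* dominated this sum. Without it the cluster summed to 397 ± 27.3 CPM in *Orco* mutants (363 to 437 CPM) and to 750.5 ± 99.6 CPM in wild-type (639 to 881 CPM), and the ranges no longer overlapped. With *Tsp42Ef* left out as well, the sums were 299 ± 33.7 CPM in *Orco* mutants and 464 ± 60.1 CPM in wild-type, still apart (at most 342 CPM in the mutants and at least 411 CPM in wild-type). Leaving out genes from the sum was a choice made after the values were seen.

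Outside the cluster, the level was carried by *Tsp74F* and *Tsp47F*. *Tsp74F* had 199, 127, 130, 131 and 179 CPM in the *Orco* mutant libraries, against 445, 119, 537 and 203 CPM in the wild-type libraries. The mutant libraries were close together while the wild-type libraries spread more than 4-fold, the second of them lying below all mutant libraries. The log2 fold change was -1.09 (SE 0.41, unadjusted p = 0.0193, edgeR adjusted p = 0.978). *Tsp47F* had 105, 156, 49.9, 227 and 127 CPM in the *Orco* mutant libraries, against 190, 330.5, 175 and 186 CPM in the wild-type libraries. All mutant libraries but the fourth were below all wild-type libraries, and the log2 fold change of -0.73 (SE 0.40) had an edgeR adjusted p of 0.997.

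The 17 tetraspanins outside the cluster summed to 523 ± 36.9 CPM in *Orco* mutants (481 to 565.5 CPM) and to 771 ± 106 CPM in wild-type (647.5 to 887 CPM), without overlap. Without *Tsp74F* the sums were 370 ± 46.9 CPM in *Orco* mutants and 445 ± 114 CPM in wild-type and overlapped. With *Tsp47F* left out as well they were 237 ± 88.0 CPM in *Orco* mutants and 225 ± 49.3 CPM in wild-type.

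*Tsp3A*, *Tsp26A* and *Tsp86D* belong to the group of tetraspanins that carry the protease Kuzbanian, the ADAM10 of flies, to the cell surface and thereby promote Notch signaling. None of them differed beyond its spread. *Tsp86D* had 102, 32.1, 6.06, 27.4 and 4.21 CPM in the *Orco* mutant libraries, against 28.6, 75.7, 34.3 and 16.5 CPM in the wild-type libraries. The first mutant library was the highest of all 9 and the fifth the lowest (log2 fold change -0.17, SE 0.83). *Tsp26A* averaged 16.4 ± 18.5 CPM in *Orco* mutants and 13.2 ± 7.62 CPM in wild-type, the third mutant library alone reaching 49.0 CPM (log2 fold change 0.31, SE 0.94). Its exons share 165 bases with *Gal* on the other strand. *Tsp3A* averaged 19.6 ± 15.9 CPM in *Orco* mutants and 13.3 ± 4.91 CPM in wild-type (log2 fold change 0.56, SE 0.90). For all 3 the edgeR adjusted p was 0.997 and the interval reached beyond 1 log2 unit on both sides.

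The positive log2 fold changes outside the cluster were led by *Tsp5D* and *Tsp66E*, both with wide errors. The exons of *Tsp5D* share 134 bases with *CG5928* and those of *Tsp66E* 173 bases with *mfr*, both on the other strand. Reads in these shared bases cannot be told apart either. *Tsp66E* had 4.63, 33.6, 166, 17.0 and 54.0 CPM in the *Orco* mutant libraries, against 10.04, 10.5, 5.29 and 33.0 CPM in the wild-type libraries. The mean of the mutants leaned on the third library, and the log2 fold change of 1.89 (SE 0.92, edgeR adjusted p = 0.997) became 0.89 without it. *Tsp5D* was counted in 4 of 5 mutant libraries and in 1 of 4 wild-type libraries, with 12.4, 13.8, 0, 5.30 and 11.9 CPM in *Orco* mutants and 0, 0, 0 and 5.59 CPM in wild-type. The third mutant library, the least complex one, was at 0 like 3 of the wild-type libraries (log2 fold change 2.59, SE 1.89, edgeR adjusted p = 0.997). The only wild-type counts were those of the fourth library. Without it all wild-type libraries were at 0, and the fitted log2 fold change of 8.79 (edgeR adjusted p = 0.978) then depends on the prior count of the fit.

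*Tsp2A*, which with Mesh and Ssk builds the smooth septate junctions of the gut, was scarce in the dorsal organ. It was counted in 3 mutant libraries (217 counts) and in 2 wild-type libraries (38 counts), and its log2 fold change of 1.28 had an SE of 1.93. *Tsp29Fb* averaged 15.5 ± 10.7 CPM in *Orco* mutants and 36.4 ± 13.5 CPM in wild-type, with a log2 fold change of -1.23 (SE 0.77). For *Tsp39D*, *Tsp96F* and *Tsp97E* the log2 fold changes were -0.18, 0.79 and -0.74, and the genotypes overlapped in each.

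**Figure D5:**
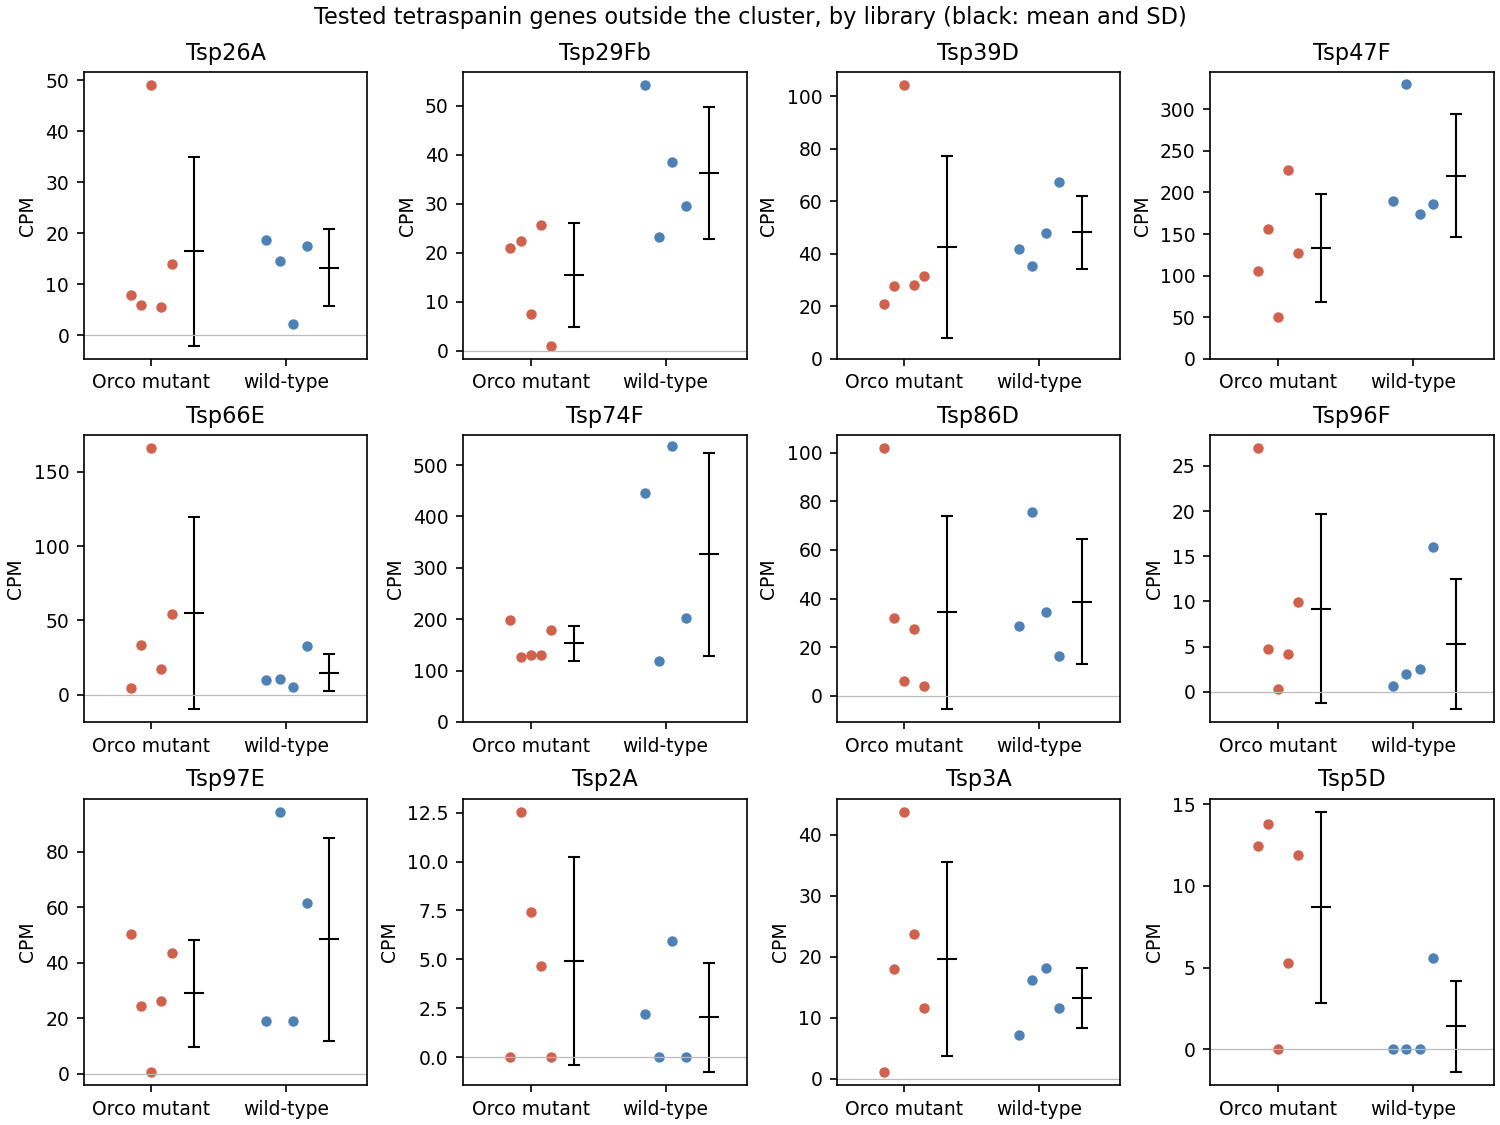
CPM of the 12 tested tetraspanin genes outside the cluster in each library (*Orco* mutant red, wild-type blue), with mean and SD in black, each panel with its own axis. The genotypes overlap in all 12 panels, and single libraries stand high for *Tsp26A*, *Tsp39D* and *Tsp66E* (the third mutant library), for *Tsp86D* (the first mutant library) and for *Tsp47F* (the second wild-type library).

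The remaining 11 members were too low to be tested, 6 of them in the cluster and 5 outside it. *Tsp42A*, *Tsp66A* and *Tsp42Eb* had 0 counts in all 9 libraries, which allows a mean level of up to 0.0528 CPM by counting error alone, the library step from RNA to cDNA not being covered. All exon bases of *Tsp66A* are shared with annotated longer genes on its strand, so its 0 says less. The other 8 had counts in some libraries, such as *Tsp42Er* with 49 counts over the mutant libraries and 87 over the wild-type libraries, 86 of these in the third wild-type library. *Tsp33B* was seen in the second wild-type library alone (16 counts), and *Tsp42Eq* in the fourth mutant library alone (4 counts). *Tsp68C* had 51 counts in 3 mutant libraries and 30 counts in 1 wild-type library, and *Tsp29Fa*, *Tsp42Ec* and *Tsp42Eh* had 22, 6 and 13 counts in all. Per library, 21 to 29 members were detected in *Orco* mutants and 24 to 27 in wild-type.

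The 35 genes had 70 transcripts in the files, 13 genes with 1 and 22 with several, and 36 transcripts could be tested. By edgeR 0 of the 36 passed over the 13161 transcripts tested (0.0152% of all did), 5 had an unadjusted p under 0.05 (3.05% of all), and DESeq2 called 2 of the 36 (0.661% of all). The pair called by DESeq2 were the only transcript of *Tsp42Ef* (adjusted p = 4.83e-05) and *Tsp5D-RA*. *Tsp5D-RA* had 102, 168, 0, 42.0 and 23.2 counts in the *Orco* mutant libraries, against 0 in each of the 4 wild-type libraries. Set against a floor of 3 counts over the wild-type group, and taking the assignment of reads as given, the mutant counts were 70.0-fold higher. Without the second mutant library, the one with most counts, they were 52.8-fold higher. This floor covers counting error only and not the spread among libraries, so these folds are no lower bounds of a genotype difference. The DESeq2 adjusted p of *Tsp5D-RA* was 0.0269 and its edgeR adjusted p 0.968. The other annotated transcripts of *Tsp5D*, *Tsp5D-RB* and *Tsp5D-RC*, have identical values in the files. They were given 12.4 counts each in the fifth mutant library, beside the 23.2 of *Tsp5D-RA*, and 21.5 each in the fourth wild-type library. The files give no error for this split, and over all transcripts the gene *Tsp5D* had a log2 fold change of 2.59 with an SE of 1.89.

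*Tsp26A* had a transcript seen only in wild-type libraries. *Tsp26A-RD* was given 0 counts in each of the 5 *Orco* mutant libraries, against 84.0, 75.4, 9.3 and 0 counts in the wild-type libraries. *Tsp26A-RC* had 64.0, 31.0, 178, 43.0 and 56.0 counts in the mutant libraries, and *Tsp26A-RB* had 42.0 in the second of them and 0 in all other libraries. Taken as assigned, *Tsp26A-RD* was 89.8-fold lower in *Orco* mutants against a floor of 3 counts over the mutant group. Without the first wild-type library it was 56.3-fold lower. Again the floor covers counting error only, so these folds are no lower bounds of a genotype difference. *Tsp26A-RD* was named after its values were seen, and it was too low in too many libraries to be tested. Over all its transcripts the gene *Tsp26A* had a log2 fold change of 0.31 with an SE of 0.94. In the wild-type libraries *Tsp26A-RC* had 0, 6.6, 0.7 and 135 counts, and its test gave an edgeR adjusted p of 0.9998. The split thus changed within wild-type as well: all counts fell on *Tsp26A-RD* in the first library and on *Tsp26A-RC* in the fourth. The transcripts differ in annotated length by only a few bases (2919 for *Tsp26A-RC* and 2913 for *Tsp26A-RD*), and the files give no error for the assignment of reads between them. *Tsp42Ee* was read almost wholly as *Tsp42Ee-RA*, with 99.8% of its counts.

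Known partners of tetraspanins, with other genes of the same pathways and compartments, were read as 4 pathway lists. Of the ADAM protease and Notch genes 13 of 14 were tested and 0 passed in either direction. Their median log2 fold change was 0.57, with 9 positive and 4 negative. The smallest p values were those of *Kul* (73.7 ± 72.3 CPM in *Orco* mutants and 22.9 ± 18.1 CPM in wild-type) and of *mam*, the Notch co-activator (32.3 ± 20.9 CPM in *Orco* mutants and 15.9 ± 3.57 CPM in wild-type), both with an edgeR adjusted p of 0.997. Of the integrin and matrix genes 12 of 14 were tested and 0 passed, 11 had a positive log2 fold change, and the median was 0.40. *LanA*, a laminin chain, averaged 67.5 ± 27.8 CPM in *Orco* mutants and 27.0 ± 9.55 CPM in wild-type (log2 fold change 1.32, edgeR adjusted p = 0.833). The integrin subunit gene *scb* followed with a log2 fold change of 1.44 (edgeR adjusted p = 0.992).

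Of the septate junction genes 18 of 19 were tested and 0 passed, 15 had a positive log2 fold change, and the median was 0.40. *Mcr* and *Nrg*, a complement-related protein and neuroglian, had log2 fold changes of 1.75 and 0.63 (edgeR adjusted p = 0.969 and 0.997). Of the endosome and lysosome genes 16 of 17 were tested and 0 passed, 10 had a positive log2 fold change, and the median was 0.11. Here *TSG101*, of the sorting machinery of endosomes, averaged 154 ± 33.3 CPM in *Orco* mutants and 70.4 ± 10.6 CPM in wild-type, and *Npc1a*, a lysosomal sterol transporter, 82.7 ± 25.4 CPM in *Orco* mutants and 185 ± 28.0 CPM in wild-type. Their log2 fold changes were 1.13 and -1.16, both with an edgeR adjusted p of 0.538. Over the 4 lists, 5 of the 59 tested genes (8.47%) had an unadjusted p under 0.05, against 4.96% of all genes tested. The median log2 fold change over all genes tested was -0.001.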

How the data were processed

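Smart-seq2 libraries of 5 *Orco* mutant and 4 wild-type samples were read. Short single-end reads were demultiplexed by the authors with CASAVA 1.8.2, cleared of adapter reads with cutadapt 1.9.1, assigned to the FlyBase Release 6 transcriptome with kallisto 0.43.0 and summed to genes with tximport, and the authors deposited the resulting estimated counts per gene and per transcript, not normalized. A mutant sample that the authors excluded for few reads was not analysed here. After rounding to whole counts, genes were filtered with filterByExpr of edgeR 4.0.16 (minimum count 10, minimum total 15), and libraries were scaled by TMM. The 9 libraries were compared by the quasi-likelihood test of edgeR in R 4.3.3, adjusted after Benjamini and Hochberg over all genes or transcripts tested, with a threshold of 0.05. DESeq2 1.42.0, RLE size factors, other filters, a replicate block and leaving out each library served as alternatives. Intervals have a level of 95%. CPM are scaled by TMM, and CPM per kb use exon lengths of the BDGP6 annotation (same assembly). Libraries had 4.09e+06 to 9.16e+06 counts, and without molecular identifiers floors cover counting error only. All members were accounted for, those tested by their values per library, and from each pathway list the 2 tested genes with the smallest p were named. The members and lists were chosen with earlier results of these data known. The test was checked on simulated counts. Replicate numbers were not used as pairs in the main test.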

Additional observations from a re-analysis of the deposited data

Results flagged for a closer look

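In 6 of the 60 groups examined (each tested tetraspanin gene, sum or share within 1 genotype), 1 library lay far from the rest of its genotype. Chance gives about 1 in 20 for normally distributed values. CPM cannot fall below 0 and need not follow that distribution, so no excess over chance can be read from this count. The third *Orco* mutant library was high for *Tsp26A* (49.05 CPM, next 13.9 CPM) and for *Tsp39D* (104.4 CPM, next 31.7 CPM), and the first mutant library for *Tsp86D* (101.7 CPM, next 32.1 CPM). In wild-type, the second library was high for *Tsp47F* (330.5 CPM, next 189.5 CPM) and the fourth for *Tsp96F* (15.98 CPM, next 2.54 CPM). *Tsp5D* had 5.586 CPM in the fourth wild-type library and 0 in the other 3.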

How the results depend on the processing

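Of 334 recomputed log2 fold changes of the 24 tested tetraspanins, 317 kept their direction and their side of the threshold, 16 turned their direction and 1 passed the threshold. With DESeq2, 1 tetraspanin gene (*Tsp42Ef*, -1.55) and 2 transcripts passed in place of 0. The edgeR adjusted p of *Tsp42Ef* ran between 0.0838 and 0.462 with 1 library left out, and its log2 fold change between -1.69 and -1.48. Over all genes, 22 higher and 39 lower passed with DESeq2, against 0 and 3 with edgeR and 1 and 4 without a filter. Leaving out 1 library gave 1 to 3 lower, and 1 higher only without wild-type library 3. A block by replicate number gave 1 higher and 3 lower. Over all transcripts, DESeq2 passed 60 higher and 27 lower, against 1 and 1 with edgeR. With 1 library left out, log2 fold changes ran from -0.19 to 1.43 for *Tsp42Ed*, from -1.13 to 1.46 for *Tsp42Eg*, from -2.01 to 0.17 for *Tsp42Ek*, from -0.45 to 0.0929 for *lbm*, from -0.68 to 0.53 for *Tsp26A*, from -0.83 to 0.0245 for *Tsp39D*, from -1.14 to 0.38 for *Tsp86D* and from -0.15 to 2.41 for *Tsp96F*; the cause was not tested. These turned without mutant library 1 (*Tsp42Ed*, *Tsp96F*), 3 (*Tsp42Eg*, *lbm*, *Tsp26A*, *Tsp86D*) or 5 (*Tsp42Eg*, *Tsp86D*) or without wild-type library 1 (*lbm*), 2 (*Tsp86D*), 3 (*Tsp26A*) or 4 (*Tsp42Eg*, *Tsp42Ek*, *Tsp39D*). With the replicate number as a block, *Tsp42Eg* turned to 0.96 and *Tsp26A* to -0.47, and 0 tetraspanins passed. Same-numbered libraries correlated at 0.027, -0.094, -0.024 and -0.028 in their deviations, so no pairing by number was seen. Such values cannot tell whether samples were prepared together. *Tsp2A* could not be tested without the second or the fourth mutant library. The summed levels of cluster and others kept their direction in all 12 alternatives each. Without wild-type library 4, *Tsp5D* went to 8.79 against a group at 0. The biological coefficient of variation over genes was 0.996, and intervals of weakly expressed members span several log2 units.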
